A study of Mus musculus with 8 samples.

Results

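Csn3, which encodes kappa-casein, was followed together with 8 other genes of milk production: Csn2, Wap, Lalba, Ltf, Elf5, Stat5a, Stat5b and Prlr. Every probe that the array files name after one of them was taken, control spots aside. The 9 genes, of 30222 gene names on the array, were read by 14 of 39429 probes. Every probe was treated on its own. RNA came from NMuMG-NT2197, a cultured cell derived from NMuMG, an epithelial line of mouse mammary gland, in 8 samples. In 4 samples the cells carried a pMSCV/hygro vector with wild-type ShcA cDNA. ShcA is an adaptor that binds phosphotyrosine on activated receptor tyrosine kinases. These samples are called wild type below. In the other 4 the same vector encoded ShcA R175Q, with residue 175 changed from arginine to glutamine. All 8 samples therefore share the cell line, the vector and an introduced ShcA cDNA. The labels do not say whether each group is 1 clone or a pool, how much ShcA the cells made of their own, or whether the cells had been given lactogenic hormones. They describe cultured cells, yet the extraction text speaks of microdissected material.

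On each array a sample labelled with Cy3 was hybridized beside a shared reference labelled with Cy5, without exchange of dyes. The labels call the reference mouse in one field and human in the labelling protocol, a conflict that could not be settled. A level below is the log2 ratio of sample over reference at a probe, after normalization, and a difference is the mean of the 4 R175Q arrays less the mean of the 4 wild-type arrays. The scanner software judged 53.7% to 63% of spots per array to be well above background in Cy3 and 61.1% to 71.7% in Cy5. No spot was saturated, and Pearson's r between arrays across probes was 0.969 to 0.996. The test took in the 22849 probes whose Cy3 signal passed that judgement on 4 or more arrays and whose spots gave a usable value on every array. Where the replicates came from is not stated, and p-values then speak only of the spread among these samples, which may be technical. In RNA from a whole culture, fewer cells that express a gene and less RNA per cell cannot be told apart.

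Milk protein consists of caseins, which assemble into micelles that carry calcium, and of whey proteins. Kappa-casein coats the surface of the micelle and keeps it in solution. In the alveolar cells of the mammary gland, prolactin binds its receptor, the receptor-bound kinase JAK2 phosphorylates STAT5A and STAT5B, and these enter the nucleus and act with factors such as ELF5 on the genes of milk proteins. Csn2 (beta-casein), Wap (whey acidic protein) and Lalba (alpha-lactalbumin, which turns a galactosyltransferase into lactose synthase) are classical targets of that pathway. Ltf encodes lactoferrin, an iron-binding protein of whey.

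The result for Csn3 turned on which of its 3 probes was read. Their opening 30 bases, 5′ to 3′, are shown because the probes sit in a single locus on the plus strand of chromosome 5 (build mm9) and gave different signals.
Csn3 probe 1: gcaattttcacagattcagatctttctcgt
Csn3 probe 2: gcttttaatgaagcaatcagtgttcaatcg
Csn3 probe 3: aggaaacaggaaaaaacagttacgtagaat
Probe 1 lies at chr5:88361449-88361508 and is assigned in the files to transcript ENSMUST00000001667. Probe 2 lies at chr5:88361092-88361151, starts 357 bases upstream of probe 1 and is assigned to the RefSeq transcript of Csn3. Probe 3 lies at chr5:88359342-88359401, a further 1750 bases upstream, and is assigned to transcript ENSMUST00000113267. No gene model of that build was used, so the exons and UTRs of these positions are not given here.

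Csn3 was lower in R175Q cells, by probe 1. Its net Cy3 intensity, the mean spot signal less the median local background, was 361, 379, 594 and 343 scanner units in R175Q replicates 1 to 4. In wild-type replicates 1 to 4 it was 1333, 925, 2097 and 1362. The dimmest wild-type array was thus brighter at this spot than the brightest R175Q array. In the reference channel the same spot read between 1199.9 and 1588 on all 8 arrays, so the groups were set apart by the sample channel.

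As levels relative to the reference, Csn3 stood at −0.98, −0.89, −0.23 and −0.93 in R175Q replicates 1 to 4. In wild-type replicates 1 to 4 it stood at 0.87, 0.44, 1.11 and 0.81. All R175Q samples lay below the reference and all wild-type samples above it, and R175Q replicate 3 lay closest to the wild-type arrays. The means were −0.76 ± 0.36 (SD, n = 4) and 0.81 ± 0.28 (SD, n = 4), or 59% and 175% of the reference. Csn3 fell by 1.57 on the log2 scale (SE 0.18, 95% interval −1.97 to −1.16), which is 2.96-fold lower (limma, adjusted p = 0.000261). Of all probes tested, 9.7% were called lower, and 12.3% had groups that did not overlap with R175Q lower.

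**Figure D1:**
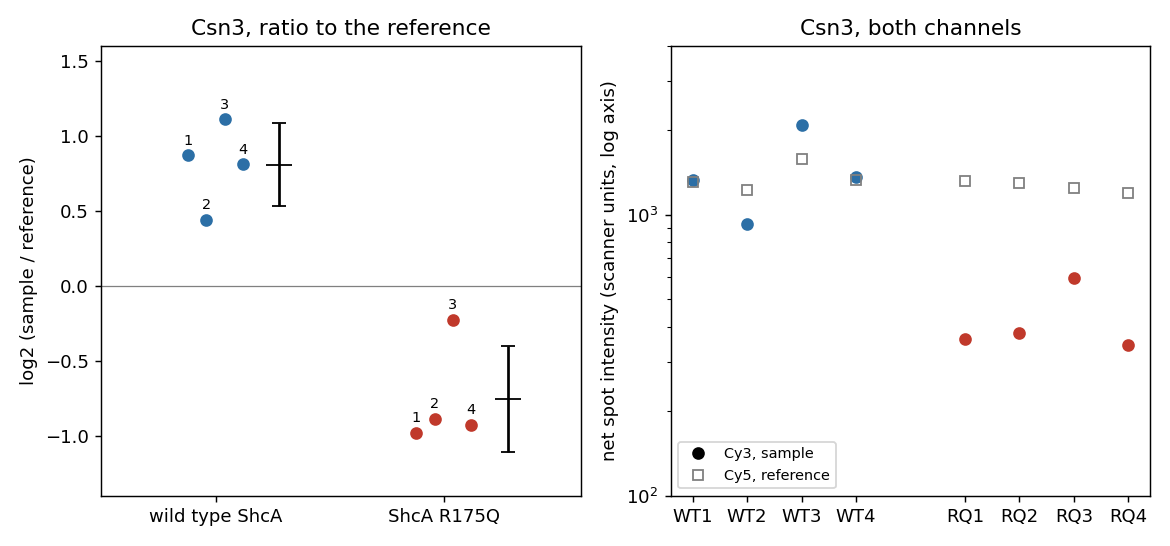
Csn3 probe 1. Left, log2 of sample over reference on each array (points numbered by replicate), with group mean and SD (bars, n = 4). Right, net spot intensity of the sample (Cy3, filled) and reference (Cy5, open) per array on a log axis, WT for wild type and RQ for R175Q. Sample intensities of 343 to 594 in R175Q lie below the 925 to 2097 of wild type, while the reference stays between 1199.9 and 1588.

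The difference in Csn3 was seen within each slide that held both groups, at −1.76 on slide 2, −1.01 on slide 3 and −1.74 on slide 4. Slide 3 carried R175Q replicate 3, and without that array the difference was −1.74. Fitted with slide as a block it was −1.45 (adjusted p = 0.00563), and with scan day as a block −1.48 (adjusted p = 0.00212). R175Q replicate 1 was alone on its slide and on its scan day, so it adds nothing to a difference fitted with either block. The call was lost with the combination of a background fitted to local backgrounds and slide as a block, where the difference was −1.16 (adjusted p = 0.173).

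The other Csn3 probes gave no readable signal in either group. Probe 2 read 7.85 to 29 net Cy3 units and probe 3 read 15.5 to 27.9, and neither was well above background in Cy3 or Cy5 on any array. Negative control spots, which are designed to match no transcript, had medians of 13.1 to 22.7 units per array and 95th percentiles of 20.7 to 39.9 in Cy3. The lower Csn3 value in R175Q thus rests on 1 of 3 probes. In the reference RNA, probe 1 was bright too while probes 2 and 3 did not exceed 35.3 and 30.6 units. Why the probes of a single locus differ was not tested.

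The remaining milk protein genes were at or near background in both groups. Csn2 read 7.74 to 18 net Cy3 units over the 8 arrays, where the medians of the negative controls ran from 13.1 to 22.7, and was well above background on no array. The Wap probes read 16.4 to 25.2 and 15.3 to 43.9 units, and the only array above background was wild type 2, at 43.9 units with the second probe. Ltf read 18 to 35.2 units and was well above background on no array. Csn2, Wap and Ltf were also not well above background in the reference on any array. For these genes the arrays give no level, and a difference between the groups was not detectable at this signal.

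Lalba was barely readable. Its probe, at chr15:98310831-98310890 on the minus strand (mm9), read 40.6 to 61.5 net Cy3 units in R175Q and 37.3 to 65.7 in wild type. It was well above background in Cy3 on 2 of the 4 R175Q arrays and on all 4 wild-type arrays. Its levels were 0.018, 0.16, 0.12 and 0.15 in R175Q replicates 1 to 4 and 0.018, 0.21, 0.24 and 0.37 in wild-type replicates 1 to 4, so the groups overlapped. The difference was −0.1 (SE 0.078, 95% interval −0.28 to 0.073) and did not pass the test (adjusted p = 0.432). At so dim a probe the offset of 50 units draws every ratio towards 0. The interval therefore cannot show whether Lalba changed as much as Csn3.

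**Figure D2:**
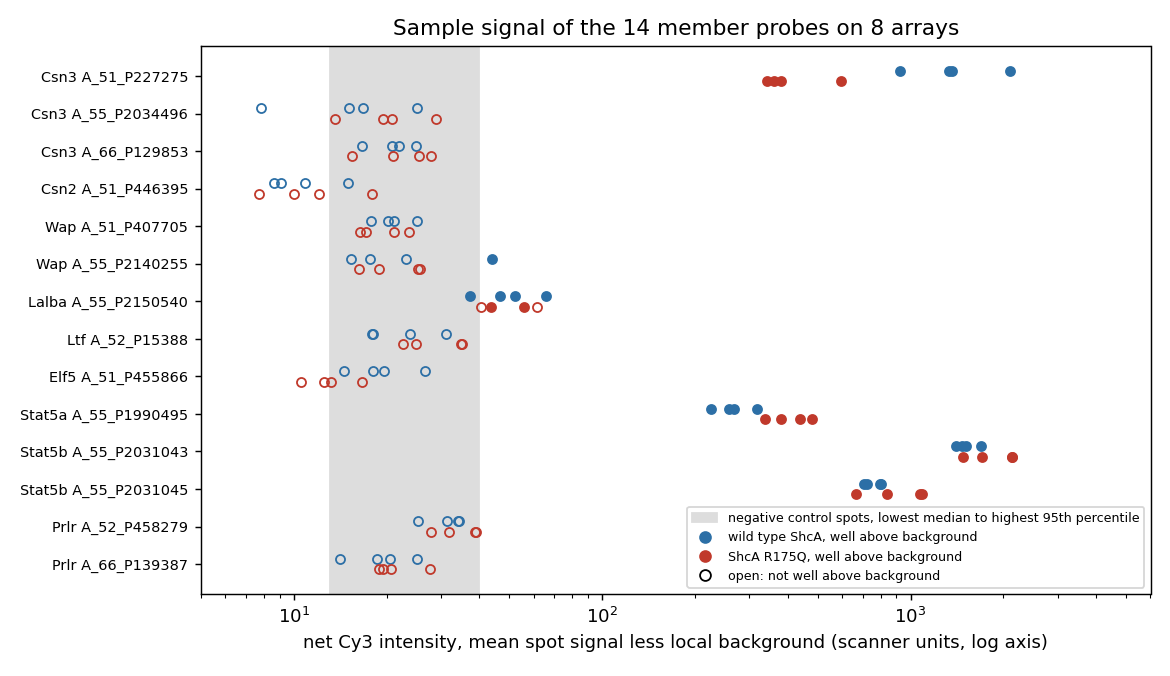
Net Cy3 intensity (log axis, scanner units) of all 14 probes of the 9 genes, 1 point per array, blue for wild type and red for R175Q. Filled points were well above background and open ones were not, and the grey band runs from the lowest median, 13.1, to the highest 95th percentile, 39.9, of the negative control spots. Csn3 probe 1, Stat5a and both Stat5b probes stand clear of the band on all 8 arrays, and Lalba lies at its upper edge.

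The prolactin receptor gene was not well above background in the cells, though it was in the reference. Prlr probe 1, at chr15:10255629-10255688 on the plus strand (mm9), read 25.3 to 39.1 net Cy3 units and was never well above background in the sample channel. Per array, 0% to 6.54% of the negative control spots read as high or higher in Cy3, so it lay near or above their upper end. Prlr probe 1 read 69.3 to 94.3 units in Cy5, above background on all 8 arrays, so the probe itself gave signal. Prlr probe 2 read 14.1 to 27.6 units in Cy3 and was above background in neither channel. Elf5, which encodes an Ets factor of alveolar cells, read 10.6 to 26.7 units in Cy3 and 15.8 to 30.1 in Cy5 and was above background on no array. Neither gene entered the test.

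Of the 9 genes, 4 had at least 1 tested probe, and these 4 genes had 5 tested probes. The other 5 genes, Csn2, Wap, Ltf, Elf5 and Prlr, had none. Among the 5 tested probes 1 was called lower, Csn3 probe 1, and 1 was called higher, Stat5b probe 1. Over all probes tested 8.93% were called higher.

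The STAT5 genes were expressed in both groups. Their probes lie on chromosome 11 (mm9), and their opening 30 bases are shown because the Stat5b probes lie close together and only probe 1 passed the test.
Stat5a: ctctctgaaggaagcagagggatgcttttt
Stat5b probe 1: tgaggcagccacaaaattgtgtattttatg
Stat5b probe 2: gtggaaggagatttgaagtggctatctcct
The Stat5a probe lies at chr11:100746373-100746432 on the plus strand. The Stat5b probes lie at chr11:100642045-100642104 and chr11:100642187-100642246 on the minus strand.

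Stat5b probe 1 rose slightly in R175Q. Its levels were 0.028, 0.038, −0.033 and 0.02 in R175Q replicates 1 to 4. In wild-type replicates 1 to 4 they were −0.14, −0.14, −0.21 and −0.13. The groups did not overlap, as was the case with R175Q higher for 11.1% of all probes tested. The difference was 0.17 (SE 0.051, 95% interval 0.056 to 0.28), which is 1.13-fold (adjusted p = 0.0435), and within slides 2, 3 and 4 it was 0.18, 0.15 and 0.15. That call was close to the threshold. It held in 8 of 25 alternative settings and was lost, for example, with slide as a block (0.16, adjusted p = 0.142), over a range of adjusted p from 0.00439 to 0.637.

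Stat5b probe 2 did not pass. It read −0.091, −0.16, −0.36 and −0.16 in R175Q replicates 1 to 4 and −0.26, −0.28, −0.46 and −0.28 in wild-type replicates 1 to 4. Replicate 3 was the lowest array of each group, and the R175Q value of replicate 3 fell among the wild-type values. The difference was 0.13 (SE 0.074, 95% interval −0.038 to 0.29, adjusted p = 0.286).

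Stat5a, the STAT5 gene with the larger part in the lactating gland, read 0.58, 0.71, 0.35 and 0.53 in R175Q replicates 1 to 4. In wild-type replicates 1 to 4 it read 0.44, 0.2, 0.056 and 0.42. R175Q replicate 3 lay below 2 of the wild-type arrays, so the groups overlapped. The difference was 0.26 (SE 0.1, 95% interval 0.033 to 0.49) and did not pass after adjustment over all probes (adjusted p = 0.111). It passed in 4 of 25 alternative settings, with differences from 0.18 to 0.45.

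Across the 8 arrays the levels of the STAT5 genes ran opposite to Csn3. Pearson's r with Csn3 probe 1 was −0.978 for Stat5b probe 1, −0.778 for Stat5b probe 2 and −0.754 for Stat5a. After group means were taken out, r was −0.805, −0.866 and −0.488. For Lalba r was 0.442 over all arrays and 0.0344 within groups. Since Csn3 splits by group and the STAT5 probes had higher means in R175Q, r over all 8 arrays in part restates those differences. These values describe 8 arrays that share a reference and a normalization, and slide 3, which held the R175Q array closest to wild type for Csn3, weighs in all of them.

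The 5 genes whose levels followed Csn3 most closely over the 8 arrays, by Pearson's r, were Dgat2, Cdkn2b, Frat2, Tom1l1 and Mpp5. Dgat2 encodes an acyltransferase that makes triglyceride, and Cdkn2b an inhibitor of cyclin-dependent kinases. Dgat2 had r = 0.994, and 0.956 within groups. For the other 4, r was 0.992, 0.991, 0.988 and 0.987 in that order, and 0.932, 0.917, 0.89 and 0.894 within groups. Since Csn3 itself splits by group, this choice of genes fixes a difference in the same direction, and their differences are given as a description: −0.83 (Dgat2), −0.82 (Cdkn2b), −0.62 (Frat2), −0.72 (Tom1l1) and −0.43 (Mpp5). Ranked within groups alone, the closest were Dusp3 (0.988), Smim13 (0.988), Sft2d2 (0.982), Rnf185 (0.981) and Pex16 (0.976), and for these 5 the differences between groups, −0.016 to 0.15, did not pass.

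Among other genes of the casein and whey list, Muc1 fell and Trf rose. That list also takes in genes of neither kind, such as Muc1, Mfge8, Pthlh and Pigr. The list held 19 genes on the array, of which 12 were tested. Of these 2 were called higher (16.7%), 3 lower (25%) and 7 did not pass, beside 8.93% and 9.7% of all probes, with a median difference of −0.053 beside −0.017 over all probes tested. Leaving out R175Q replicate 1, 2 or 3 or wild type replicate 1 brought the higher calls to 1. With each array left out in turn, 2 to 3 were called lower. Apart from Csn3 and Lalba, 10 were tested, with 2 higher, 2 lower and a median of −0.016. Muc1, a mucin of the apical membrane that is carried into milk on fat globules, fell by 0.51 (SE 0.075, adjusted p = 0.00119). Trf, which encodes the iron carrier transferrin, rose by 0.38 (SE 0.085, adjusted p = 0.0124), a call lost with slide as a block (adjusted p = 0.0604). With a background fitted to local backgrounds, Csn3 was the only gene of the list that passed, and Muc1 stood at −0.29 (adjusted p = 0.286). Under that setting 4.01% of all probes were called in either direction.

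Pthlh, which encodes a calcium-mobilizing hormone secreted by the lactating gland, rose by 0.8 (SE 0.21, adjusted p = 0.0259). Within slide 4 it differed by −0.031, against 0.84 and 1.08 on slides 2 and 3, and with slide as a block it did not pass (adjusted p = 0.119). Pigr, the receptor that moves IgA across the epithelium, fell by 0.36 (SE 0.1, adjusted p = 0.0355) and likewise did not pass with slide as a block (adjusted p = 0.115). Pthlh passed in 16 of 25 alternative settings and Pigr in 11 of 25. Mfge8, a milk fat globule protein, at 0.072 and Spp1, which encodes osteopontin, at −0.092 did not pass. The alpha-casein genes Csn1s1 and Csn1s2a and the mucin-like Glycam1 were above background in neither channel on any array. The casein gene Csn1s2b was above background in Cy3 on 2 R175Q and 3 wild-type arrays. Its difference was 0.0092 (SE 0.061) and did not pass (adjusted p = 0.941).

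Genes for milk fat, lactose and their secretion went both ways. Of 34 on the array 29 were tested, 6 were called higher (20.7%), 2 lower (6.9%) and 21 did not pass, beside 8.93% and 9.7% of all probes, with a median of 0.034. Leaving out R175Q replicate 4 or wild type replicate 1, 2 or 4 brought the higher calls to 3, and leaving out R175Q replicate 2 gave 4. Abcg2, the transporter that moves riboflavin and drugs into milk, fell from a mean level of −0.97 ± 0.16 (SD, n = 4) in wild type to −2.38 ± 0.075 (SD, n = 4), a difference of −1.41 (SE 0.082, adjusted p = 4.23e-06). Dgat2 fell by 0.83 (SE 0.11, adjusted p = 0.00072). Xdh, an oxidoreductase needed to wrap fat globules in membrane, rose by 0.49 (SE 0.07, adjusted p = 0.00102).

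Aqp5, a water channel, rose by 0.29 (SE 0.065, adjusted p = 0.0133), and Pgm1, of glucose phosphate metabolism, rose by 0.43 (SE 0.12, adjusted p = 0.0269). Both missed the threshold with slide as a block, at adjusted p = 0.0537 and 0.0621. Scd1, a fatty acid desaturase, rose by 0.48 (SE 0.071, adjusted p = 0.00121), but with a background fitted to local backgrounds its difference was −0.3 (adjusted p = 0.754). Plin2, which coats lipid droplets, at 0.25, Pgm2 at −0.18 and Lpl at −0.14 did not pass. With a background fitted to local backgrounds 1 of the 29 was called higher, Xdh, and 2 lower, Abcg2 and Dgat2.

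Of the other genes listed with the prolactin receptor and STAT5, Jak2 and Socs2 fell while Ghr, Stat6 and Ptpn6 rose. The prolactin and STAT5 list held 33 genes on the array and 27 tested, of which 4 were called higher (14.8%), 2 lower (7.41%) and 21 did not pass, beside 8.93% and 9.7% of all probes, with a median of −0.0098. The lower calls came to 3 without R175Q replicate 4 or wild type replicate 3. With each array left out in turn, 3 to 5 were called higher. Without the STAT5 genes themselves, 25 were tested, with 3 higher and 2 lower. Jak2, the kinase bound to the prolactin receptor, fell from 0.39 ± 0.084 (SD, n = 4) to −0.084 ± 0.1 (SD, n = 4), by 0.48 (SE 0.07, adjusted p = 0.00118). Socs2, a feedback inhibitor of this pathway that STAT5 induces, fell by 0.56 (SE 0.093, adjusted p = 0.00241).

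Ghr, the growth hormone receptor, which also signals through JAK2, rose by 0.5 (SE 0.059, adjusted p = 0.000306). Stat6, the STAT of interleukin 4 and 13 signalling, rose by 0.34 (SE 0.049, adjusted p = 0.00113). Ghr, Stat6, Jak2 and Socs2 also passed with a background fitted to local backgrounds. Ptpn6, a tyrosine phosphatase that acts on JAK kinases, rose by 0.4 (SE 0.082, adjusted p = 0.00819), a call lost with a background fitted to local backgrounds (0.075, adjusted p = 0.855). Bcl6, a repressor that competes for STAT5 sites, at 0.32 and Tnfrsf11a, the receptor RANK, at −0.22 did not pass. The hormone gene Prl and the growth factor gene Igf2 were above background in the sample channel on no array, though both were above it in the reference on all 8.

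**Figure D3:**
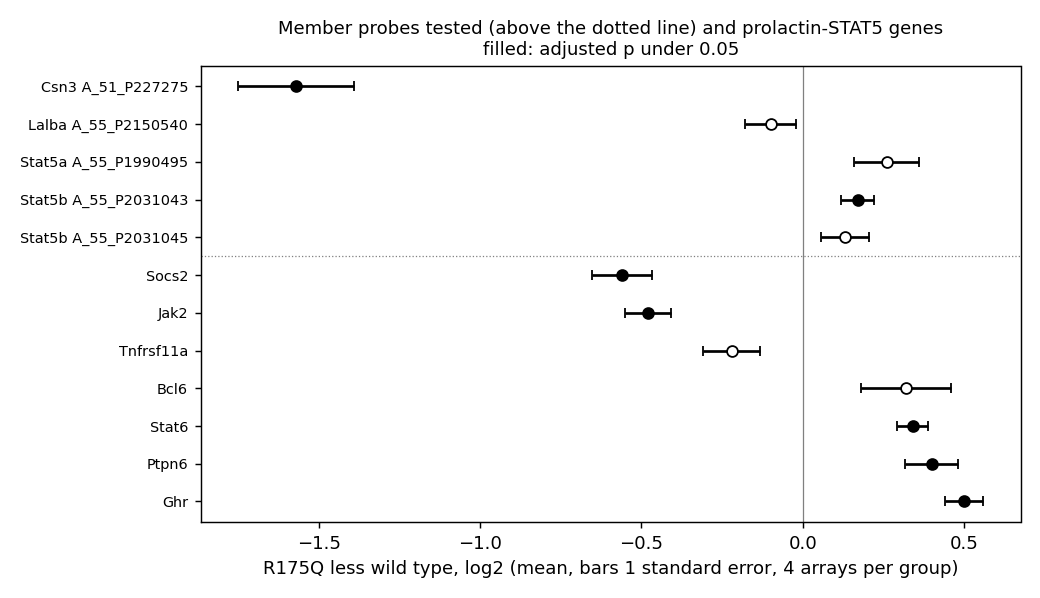
Differences between R175Q and wild type (log2, bars 1 SE, 4 arrays per group) for the 5 tested probes of the 9 genes, above the dotted line, and for the named genes of the prolactin and STAT5 list, below it. Filled points passed the test. Csn3 at −1.57 lies farther from 0 than any other point drawn, and the STAT5 probes lie between 0.13 and 0.26.

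Transcription factors of alveolar and luminal cells were called in both directions. Of 30 on the array 27 were tested, 10 were called higher (37%), 4 lower (14.8%) and 13 did not pass, beside 8.93% and 9.7% of all probes, with a median of 0.16. The lower calls came to 2 without R175Q replicate 1 or wild type replicate 1 or 4, and to 6 without wild type replicate 3. With each array left out in turn, 7 to 10 were called higher. Tbx3, a T-box factor needed for the mammary placode, rose from −3.05 ± 0.054 (SD, n = 4) to −2.09 ± 0.079 (SD, n = 4), by 0.96 (SE 0.06, adjusted p = 6.08e-06). Esr1, the oestrogen receptor, rose by 0.51 (SE 0.091, adjusted p = 0.00331), and Cebpd, a C/EBP factor active in involution, by 0.82 (SE 0.15, adjusted p = 0.00402).

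Nfix, of the nuclear factor I family that occupies milk gene promoters, rose by 0.27 (SE 0.053, adjusted p = 0.00642). Foxa1, which opens chromatin for the oestrogen receptor, fell by 0.36 (SE 0.075, adjusted p = 0.00774), and Cited1, a coactivator of that receptor, by 0.35 (SE 0.074, adjusted p = 0.00956). Notch1 at −0.5, Id2 at −0.4 and Tfap2a at 0.26 did not pass. With a background fitted to local backgrounds 0 of the 27 passed, and Esr1 stood at 0.086 and Tbx3 at 0.39.

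Genes that rise when milk stays in the gland and the alveoli regress were mostly higher in R175Q where they passed. Like the other lists, this list was chosen with earlier results of these data known. Its shares beside those of all probes are therefore a description. Of 30 on the array 26 were tested, 11 were called higher (42.3%), 1 lower (3.85%) and 14 did not pass, beside 8.93% and 9.7% of all probes, with a median of 0.23. The lower call was Bcl3, named after its value was seen. When arrays were left out in turn, 1 gene was called lower without R175Q replicate 3 or wild type replicate 2, and 0 otherwise. The higher calls then ran from 9 to 13. Mmp2, a gelatinase that degrades basement membrane, rose from −4.76 ± 0.14 (SD, n = 4) to −2.94 ± 0.18 (SD, n = 4), by 1.82 (SE 0.1, adjusted p = 2.84e-06). Lbp, which binds lipopolysaccharide, rose by 0.62 (SE 0.06, adjusted p = 8.14e-05). Tgfb3, a growth factor induced by milk stasis, rose by 0.54 (SE 0.057, adjusted p = 0.000161).

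Il6st, the shared receptor subunit gp130 upstream of STAT3, rose by 0.44 (SE 0.055, adjusted p = 0.000395), and Ctsb, a lysosomal protease, by 0.62 (SE 0.1, adjusted p = 0.00227). Stat3 itself, at 0.19, Saa1 at 0.33 and Lcn2 at 0.55 did not pass. With a background fitted to local backgrounds 5 of the 26 were called higher and 0 lower, beside 4.01% of all probes in either direction. Mmp2 was then 1.11 (adjusted p = 0.0337).

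**Figure D4:**
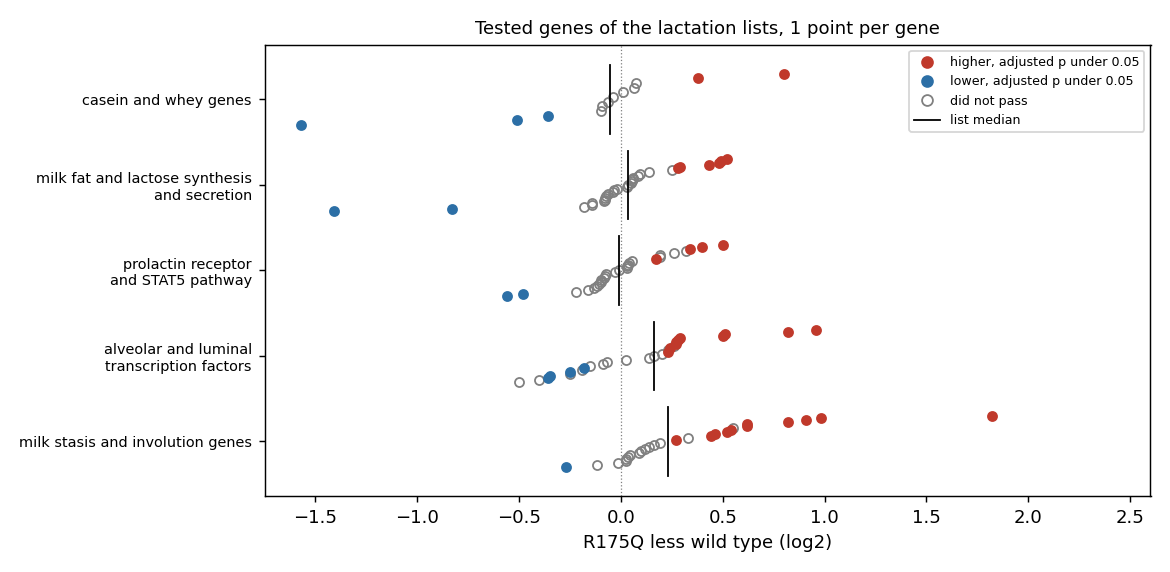
Differences between R175Q and wild type (log2) of the tested genes of the 5 lactation lists, 1 point per gene. Red points were called higher, blue ones lower and open ones did not pass, and each black line is the list's median. The medians run from −0.053 for casein and whey genes to 0.23 for milk stasis and involution genes, beside −0.017 over all probes tested.

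Markers of cell types were read in the same arrays, and their part in the differences above was not tested. Their calls stand beside 8.93% of all probes tested called higher and 9.7% called lower. Apart from genes named above, the markers are given without the alternative settings. Of the luminal list 6 of 7 genes were tested, and the keratins Krt19 (−0.41, adjusted p = 0.00835) and Krt8 (−0.22, adjusted p = 0.0315) fell. The list's mean level per array was 0.14 to 0.22 in R175Q and 0.33 to 0.42 in wild type. Of the alveolar progenitor list Kit, Aldh1a3 and Elf5 were never above background in the sample channel. That list shares Csn3, Trf, Lalba and Elf5 with the genes described above, and its mean was 0.7 to 0.94 in R175Q and 0.9 to 1.24 in wild type. Over its 3 tested genes other than Csn3 the mean was 1.26 to 1.33 in R175Q and 1.05 to 1.28 in wild type, so Csn3 sets the direction of the full list.

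Of 6 tested fibroblast and pericyte markers 4 were called higher, beside 8.93% of all probes: Pdgfrb (1.19), Dcn (0.72), Col1a2 (0.58) and Col3a1 (0.39). Their list's mean was far below the reference in both groups, at −6.27 to −5.96 in R175Q and −6.84 to −6.61 in wild type. Among adipocyte markers Fabp4 fell by 1 on the log2 scale (adjusted p = 0.000229), while Adipoq, Plin1, Cfd and Lep were above background in the sample channel on no array. Of 5 tested markers of hormone-sensing luminal cells 2 rose, Ly6a (0.95, adjusted p = 0.000452) and Esr1, and 2 fell, Foxa1 and Cited1. Of 3 tested endothelial markers Vwf rose (0.85, adjusted p = 0.000281), while Pecam1 (−0.14) and Kdr (−0.051) did not pass. Hba-a1, the only erythroid marker tested, rose by 0.43 (adjusted p = 0.00264). Of 9 tested myeloid markers 1 passed, Mrc1, which fell by 0.59 (adjusted p = 0.0016). The median of the myeloid list was −0.11, and Cd68 (0.55) and Cd14 (0.087) lay in the other direction. None of the 5 tested basal, 4 lymphocyte or 5 neutrophil markers passed, beside 8.93% of all probes called higher and 9.7% lower.

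Finally, the windows around the start sites of the 9 genes were searched for TTCNNNGAA, the motif that STAT5 dimers bind, which reads the same on both strands. RefSeq windows of 300 bases (GRCm38.p6), from 250 before to 50 after a start, were at hand for 8 of the 9 genes, all but Csn3, with 13 windows in all. The motif was in 2 of the 13, and in 8.3% of all 32851 windows. The stretches around these matches are shown, with the motif in capitals, because they belong to the classical target Csn2 and to the receptor gene.
Csn2: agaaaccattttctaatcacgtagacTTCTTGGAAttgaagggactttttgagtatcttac
Prlr: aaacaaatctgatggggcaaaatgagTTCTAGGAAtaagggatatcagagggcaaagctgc
The Csn2 stretch, chr5:87699484-87699544 on the minus strand, holds the motif 93 to 85 bases before the start. The Prlr stretch, chr15:10223770-10223830 on the plus strand, holds it 110 to 102 bases before the start. These matches describe letters in a window. Neither gene was well above background in these cells on any array.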

How the data were processed

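Agilent two-colour arrays were read with Feature Extraction 9.5.3.1, per the file headers, which wrote mean spot and local background intensities. The deposited value table holds processed log2 ratios whose scaling and centring are not stated. Its column medians were 0.0526 to 0.0617, and its r with the scanner's Cy3 over Cy5 ratio was 0.901 to 0.941 across probes. It served as an alternative. Deposited log10 ratios of the scanner were used only for that comparison.

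From the deposited intensities, background was corrected by normexp with level and spread from the 153 negative control spots of each array and channel (MASS 7.3.60.0.1), with an offset of 50, then loess within arrays in limma 3.58.1 (statmod 1.5.0, R 4.3.3). This background was chosen with earlier results of these data known: a fit to local backgrounds put the Cy3 level between −689.8 and −0.369 units per array, while negative controls had medians of 13.1 to 22.7. The members and lists were also chosen with earlier results of these data known. Spots of a probe were averaged. Groups were compared by limma's two-sided moderated test, adjusted by Benjamini-Hochberg over 22849 probes, at 0.05. In the lists the brightest tested probe stood for a gene, while the shares set beside them are over all probes tested. With the brightest probe of each gene throughout, 1684 of 17458 were called higher and 1705 lower.

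Named from each list were up to 6 genes past the threshold with the lowest p and up to 3 with the largest difference that did not pass. Gene names are those of the files, and 26761 of 28389 RefSeq accessions matched a GRCm38.p6 table. On simulated data with 22849 probes the procedure recovered 58% of changes of 0.5, 98% of 1, and 100% of 1.5 and 2, and 7.77% of its calls were false. The number of arrays limits the precision. Alternatives covered background, normalization, channels, filter, probes per gene, moderation, array weights, slide, scan day (added after seeing the data), replicate number and leaving out each array.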

Additional observations from a re-analysis of the deposited data

Results flagged for a closer look

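Of 88 groups of 4 arrays (44 genes or probes, each in both groups), 9 held an array far from the others, by a gap to the nearest that was above Dixon's critical value as a share of the group's range. Chance flags about 1 in 20 groups. Among the 9 genes described, Csn3 probe 1 stood at −0.23 in R175Q replicate 3, against −0.98 to −0.89 on the other R175Q arrays. Stat5b stood at −0.21 with probe 1 in wild type replicate 3, against −0.14 to −0.13. With probe 2 it stood at −0.46 in the same sample, against −0.28 to −0.26.

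Among the list genes, Dgat2 was −1.89 and Aqp5 2.49 in R175Q replicate 3, against −2.24 to −2.19 and 2.58 to 2.59. Tfap2a was 0.78 and Id2 −1.73 in wild type replicate 3, against 0.41 to 0.47 and −0.66 to −0.53. Pgm1 was −0.41 in R175Q replicate 4, against −0.72 to −0.7, and Lpl was −5.07 in R175Q replicate 1, against −5.13 to −5.12. R175Q replicate 3 and wild type replicate 3 were on slide 3, together with wild type replicate 2.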

How the results depend on the processing

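Csn3 probe 1 was lower in all 25 alternatives, from −1.77 to −1.16, and passed in 24. It was lost with local backgrounds and slide as a block together (−1.16, adjusted p = 0.173), where 0 probes were called higher and 1 lower of 22849, and 2617 had an unadjusted p under 0.05. There Lalba turned to 0.0058 and Stat5b probe 2 to −0.022. Against 2041 probes higher and 2217 lower, local backgrounds alone gave 484 and 432, and array weights 3837 and 4854. The scanner's processed signals gave 1206 lower. Leaving out each array gave 1458 to 2523 higher and 1468 to 2700 lower (1468 without wild type replicate 1), and −1.74 to −1.46 for Csn3. The causes were not tested. With local backgrounds Notch1 turned to 0.11, and with slide as a block too Ptpn6 turned to −0.008. Arrays with the same replicate number had r = 0.302, 0.0159, 0.551 and 0.119 and were the best match for numbers 1 and 3. Since the labels name no shared origin and r was not over 0.1 for every number, they were not taken as pairs. A replicate block gave 2480 higher and 2632 lower, Stat5a passing (adjusted p = 0.0484) and Stat5b probe 1 not (adjusted p = 0.0517). Signal limits what can be read: of the 14 probes of the 9 genes, 8 were never above background in Cy3.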
